A study of Mus musculus with 12 samples.

Results

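The genes described here encode 10 surface proteins through which antigen-presenting cells steer T cells: the B7 costimulators Cd80 and Cd86, their companion Cd83, the receptor Cd40, the checkpoint ligands Cd274 and Pdcd1lg2, the ICOS ligand Icosl, the TNF-family ligands Tnfsf4 and Tnfsf9, and the TNF-family receptor Tnfrsf9. They were chosen by name for this role, with earlier results of these data known. All 10 were found among the 47643 gene IDs of the deposited tables, and all 10 had enough reads to be tested, among 14034 genes that did.

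Poly(A) RNA had been sequenced from bone-marrow monocytes of mice on a C57BL/6 background, either wild type (WT) or carrying the genotype labelled Nr4a3 KO. Nr4a3 encodes the nuclear receptor NR4A3, an early-response transcription factor, whose protein these RNA libraries do not measure. The series title names the question, the role of NR4A3 when monocytes turn into dendritic cells. The 12 libraries form 6 groups of 2: sorted monocytes with no culture, and monocytes after 1 day or 2 days in GM-CSF plus IL-4, in each genotype. These are the standard cytokines for growing dendritic cells from monocytes. Every cultured cell had both cytokines, so neither can be judged alone, and no stimulus meant to mature the cells is named. The sources used here do not give how the KO allele was built, the animals' age or how many mice a library holds. The labels state independent experiments for the libraries of a group, and p-values measure the spread between such libraries.

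A naive T cell needs, beside antigen, a costimulatory signal, which CD80 and CD86 on the dendritic cell give through CD28. The same ligands bind the inhibitory receptor CTLA-4, and PD-L1 (Cd274) and PD-L2 (Pdcd1lg2) bind the inhibitory receptor PD-1. CD40 works in the other direction: it receives CD40 ligand from the T cell and drives the dendritic cell, through TRAF proteins and NF-kappaB, to make more costimulators. ICOS ligand, OX40 ligand (Tnfsf4) and 4-1BB ligand (Tnfsf9) act later, on T cells that have already been primed.

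Levels are in CPM, gene counts over the library size after TMM scaling (5905266 to 18447405 reads in genes per library), given for replicate 1 and then replicate 2, and means are ± SD with n = 2. Fold changes are ratios of mean CPM, log2 fold changes are ± SE from edgeR, and a change is called at an adjusted p under 0.05 over all genes tested. Nr4a3 itself reached 1287 and 1358 CPM in the WT day 2 libraries, against 39.0 and 19.3 CPM in their KO partners. Its day 1 values were 16.5 and 10.4 CPM for WT, then 6.58 and 0 CPM for KO, so 76 reads of the gene were found in the library labelled KO day 1 replicate 1. Neutrophil markers (12 genes) summed to 4456 CPM in WT monocytes replicate 2, against 526 to 2274 CPM in the other libraries. These 2 libraries stood apart. Monocytes and day 1 came from 1 pair of experiments and day 2 from another, going by dates in file names, so culture to day 2 and experiment cannot be told apart. In day 2 replicate 1, the female-specific Xist stood at 885 CPM in WT and 794 CPM in KO, against at most 1.01 CPM in every other library. Summed markers of cultured dendritic cells (10 genes) went from 59.5 to 123 CPM in monocytes to 25835 to 32115 CPM at day 2, and those of classical monocytes (8 genes) from 25572 to 56442 CPM down to 1154 to 7007 CPM. In such bulk libraries, fewer cells of a type and less RNA per cell cannot be told apart.

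In WT cells the checkpoint ligands, Cd80, Cd83 and Tnfrsf9 were called higher by day 1, Cd40, Cd86 and Tnfsf4 joined them at day 2, and Icosl was called lower at day 2. At day 1 against monocytes 5 of the 10 genes were called higher and 0 lower, where 11.4% of all genes tested were called higher and 10.1% lower. At day 2 against monocytes 8 were called higher and 1 lower, where 12.7% of all genes were called higher and 9.89% lower. Between day 1 and day 2, 7 were called higher and 1 lower, against 4.67% and 3.51% of all genes. The median log2 fold change of the 10 genes was 2.67 at day 1 and 5.50 at day 2, beside 0.06 and 0.09 over all genes tested; with Tnfsf4, at 0 reads in monocytes, set to its bound, the median was 2.14 at day 1 and again 5.50 at day 2.

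**Figure D1:**
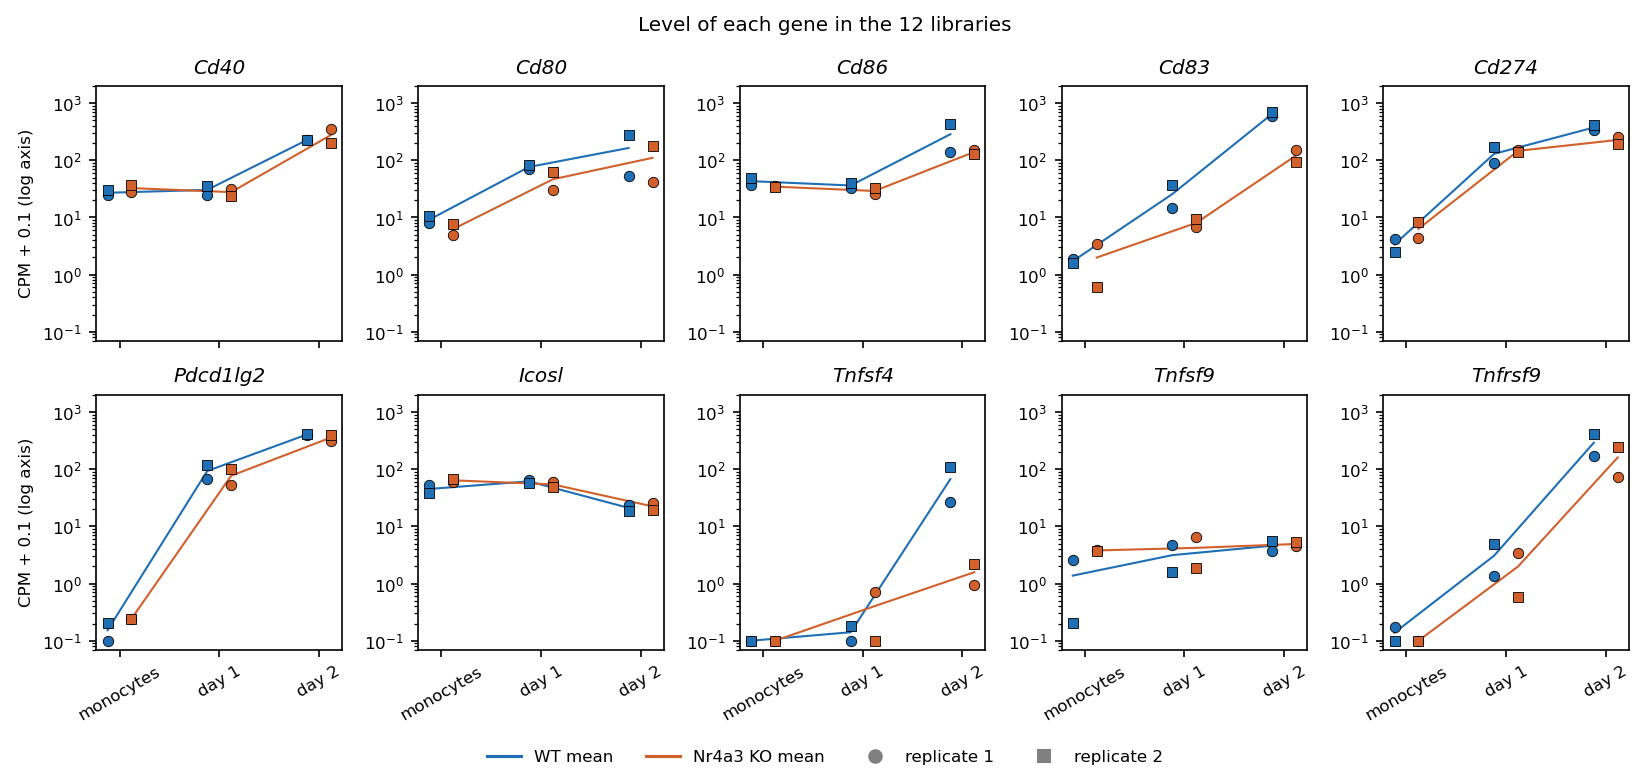
Level of each of the 10 genes in the 12 libraries, as CPM + 0.1 on a log axis (points are libraries, lines join group means, blue is WT and orange Nr4a3 KO). Cd274 and Pdcd1lg2 rose by day 1, Cd40, Cd86, Cd83 and Tnfrsf9 are highest at day 2, Icosl is lowest at day 2, and Cd83 and Tnfsf4 at day 2 lie lower in both KO libraries than in both WT libraries.

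Cd80 and Cd86, the paired B7 ligands of CD28, moved at different times. Cd80 stood at 7.82 and 10.3 CPM in WT monocytes, at 70.9 and 82.0 CPM at day 1, and at 53.2 and 276 CPM at day 2. Both day 1 libraries were above both monocyte libraries, and the day 2 libraries lay on either side of them. Cd80 rose 8.43-fold by day 1 (log2 fold change 3.08 ± 0.82, edgeR adjusted p = 0.0228) and stood 18.1-fold above monocytes at day 2 (4.18 ± 0.85, adjusted p = 0.00621). The day 1 call was lost without any 1 of the 4 libraries compared (adjusted p between 0.0669 and 0.121), and the day 2 call without either WT monocyte library (0.0523 and 0.0689).

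Cd86 behaved otherwise. It stood at 36.6 and 49.8 CPM in WT monocytes, at 32.3 and 40.2 CPM at day 1 and at 141 and 431 CPM at day 2. The day 1 values overlapped those of monocytes, with a log2 fold change of -0.25 ± 0.43 (edgeR adjusted p = 0.723), and both day 2 values were above all earlier ones. The rise to day 2 was 6.63-fold (2.73 ± 0.46, edgeR adjusted p = 0.00214). Compared per length, in CPM per kb of exon, the level of Cd80 was 0.138 to 0.217 of that of Cd86 in the 4 monocyte libraries, 1.15 to 2.17 of it in the 4 day 1 libraries, and 0.268 to 1.39 of it at day 2. Cd80 was thus the more abundant RNA of the pair in all 4 day 1 libraries and the scarcer one in all 4 monocyte libraries. The genes lie 1.789 Mb apart on chromosome 16, on opposite strands, with 25 protein-coding genes between them (Cd80 at chr16:38455561-38496335, Cd86 at chr16:36603869-36666081, GRCm38).

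In KO cells the pair followed the same order. Cd80 stood at 4.93 and 7.45 CPM in KO monocytes, at 29.96 and 63.1 CPM at day 1 and at 41.5 and 179.6 CPM at day 2. The rise was 7.52-fold by day 1 (log2 fold change 2.91 ± 0.81, edgeR adjusted p = 0.0388) and 17.9-fold by day 2 (4.16 ± 0.86, adjusted p = 0.00785). Cd86 stood at 35.2 and 34.0 CPM, then 25.8 and 32.2 CPM, then 153 and 128 CPM. Only the day 2 libraries of KO cells were higher than monocytes, by 4.06-fold (2.02 ± 0.44, edgeR adjusted p = 0.0110). The Cd80 call at day 1 was lost in 8 of 22 alternatives, leaving out either KO monocyte library among them (adjusted p = 0.208 and 0.158), and those libraries also decided the day 2 calls of Cd80 (0.0796 and 0.0670) and Cd86 (0.0747 and 0.0961). Cd80 at day 2 was lost without KO day 2 replicate 2 too (0.0549), and Cd86 without KO day 2 replicate 1 (0.0508).

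Cd83, an immunoglobulin-family protein used as the surface marker of mature dendritic cells and known in mice to hold CD86 and MHC class II at the surface by opposing the ubiquitin ligase MARCH1, was almost silent in monocytes. It stood at 1.76 and 1.48 CPM in WT monocytes, at 14.5 and 36.9 CPM at day 1 and at 603 and 693 CPM at day 2. No 2 stages overlapped in WT cells. Cd83 rose 15.9-fold by day 1 (log2 fold change 3.97 ± 0.72, edgeR adjusted p = 0.00408) and 400.3-fold by day 2 (8.63 ± 0.85, adjusted p = 0.000115), and per length it was the most abundant of the 10 RNAs at WT day 2, at 252 ± 24.8 CPM per kb.

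In KO cells Cd83 stood at 3.29 and 0.496 CPM in monocytes, at 6.67 and 9.25 CPM at day 1 and at 151 and 92.2 CPM at day 2. The stages again did not overlap. The 4.21-fold difference at day 1 did not pass (log2 fold change 2.07 ± 0.68, edgeR adjusted p = 0.0663; DESeq2 adjusted p = 0.0130), and the 64.2-fold rise at day 2 did (6.00 ± 0.76, edgeR adjusted p = 0.000601). Cd83 lies at chr13:43784775-43803132.

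Cd40, the receptor for CD40 ligand, rose late in both genotypes. It stood at 24.3 and 29.6 CPM in WT monocytes, 25.1 and 35.6 CPM at WT day 1, and 224 and 229.6 CPM at WT day 2. The first 2 stages overlapped and day 2 stood apart. The rise to day 2 was 8.41-fold over monocytes (log2 fold change 3.07 ± 0.36, edgeR adjusted p = 0.000291) and 7.47-fold over day 1 (2.90 ± 0.35, adjusted p = 0.00183). In KO cells Cd40 stood at 28.1 and 37.1 CPM in monocytes, 31.4 and 23.9 CPM at day 1, then 355 and 198 CPM at day 2, an 8.49-fold rise over monocytes (3.08 ± 0.36, edgeR adjusted p = 0.000366). The day 2 calls against monocytes held in each of the 21 alternatives run for each genotype.

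Cd274 and Pdcd1lg2, which encode the PD-1 ligands PD-L1 and PD-L2, were called higher than in monocytes at day 1 and at day 2 in both genotypes. They are neighbours on chromosome 19 (Cd274 at chr19:29367455-29388095, Pdcd1lg2 at chr19:29410919-29471161, both on the plus strand), 22823 bases apart with 0 protein-coding genes between them. The 250 bases before the RefSeq starts of both genes (GRCm38.p6) are shown because neighbours that rose together can be compared here letter by letter. Capitals mark matches to 6 motifs searched on both strands: the kappaB motif, the GAS motif TTCNNNGAA, its STAT6-type form with a wider gap TTCNNNNGAA, the NR4A response element NBRE (AAAGGTCA), AP-1 (TGANTCA) and the ISRE core GAAANNGAAA.
Pdcd1lg2, chr19:29410669-29410918, plus strand: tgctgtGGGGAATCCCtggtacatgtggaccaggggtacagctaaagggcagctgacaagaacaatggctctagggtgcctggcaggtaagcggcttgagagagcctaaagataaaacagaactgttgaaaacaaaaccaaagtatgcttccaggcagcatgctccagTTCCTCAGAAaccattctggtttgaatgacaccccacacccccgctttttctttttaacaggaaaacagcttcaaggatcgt
Cd274, chr19:29367188-29367437, plus strand: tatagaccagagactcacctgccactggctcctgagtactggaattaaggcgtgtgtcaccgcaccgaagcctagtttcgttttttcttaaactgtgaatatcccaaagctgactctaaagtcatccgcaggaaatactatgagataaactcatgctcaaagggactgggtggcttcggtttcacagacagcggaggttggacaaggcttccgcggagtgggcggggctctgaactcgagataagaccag
The Pdcd1lg2 window holds a kappaB match at bases -244 to -235 from the start and a STAT6-type match at -82 to -73, and the Cd274 window holds no match to any of the 6. Over 32536 promoter windows of the same length and genome, 3.92% hold the kappaB motif and 5.89% the STAT6-type motif. A match describes letters only.

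Cd274 stood at 4.14 and 2.43 CPM in WT monocytes, at 91.2 and 169 CPM at day 1 and at 342 and 409 CPM at day 2. The stages did not overlap. It rose 39.6-fold by day 1 (log2 fold change 5.29 ± 0.47, edgeR adjusted p = 0.000125), 114-fold by day 2 (6.82 ± 0.51, adjusted p = 2.74e-05), and 2.89-fold between the days (1.53 ± 0.39, adjusted p = 0.0401). That last call was lost without any 1 of the WT day 1 or day 2 libraries (adjusted p between 0.0818 and 0.217) or either KO day 2 library (0.0557 and 0.0550), while the calls against monocytes held in every alternative run. In KO cells Cd274 stood at 4.36 and 8.08 CPM, then 153 and 139.9 CPM, then 261 and 194 CPM. It rose 23.6-fold by day 1 (4.56 ± 0.45, edgeR adjusted p = 0.000273) and 36.6-fold by day 2 (5.19 ± 0.46, adjusted p = 8.34e-05), and the 1.55-fold step between the days did not pass (0.63 ± 0.39, adjusted p = 0.442).

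Pdcd1lg2 was close to absent from monocytes, with 0 and 1 reads in WT and 2 and 2 reads in KO. It then stood at 68.8 and 118 CPM at WT day 1 and 405 and 407 CPM at WT day 2, against 53.3 and 101 CPM at KO day 1 and 314 and 403 CPM at KO day 2. Monocytes, day 1 and day 2 did not overlap in either genotype. With 1 read in WT monocytes the ratio of day 1 to monocytes was 2102, with a 95% interval of 377 to 83070; this interval and the bounds used for 0 reads cover counting error only, as PCR copies were not marked by molecular identifiers. The WT call at day 1 had an edgeR adjusted p of 2.77e-05. In KO cells, with 4 reads in monocytes, the rise was 541-fold by day 1 (log2 fold change 8.97 ± 0.62, edgeR adjusted p = 4.67e-05) and 2516-fold by day 2 (11.19 ± 0.65, adjusted p = 1.84e-05). Between day 1 and day 2 it rose 4.36-fold in WT (2.12 ± 0.40, edgeR adjusted p = 0.0137) and 4.65-fold in KO (2.22 ± 0.40, adjusted p = 0.0233). The WT step was lost without any 1 of its 4 libraries. The KO step was lost without KO day 1 replicate 1 or either KO day 2 library. It was also lost in an edgeR fit on the compared groups only (adjusted p = 0.121).

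Per length, Cd274 was below Pdcd1lg2 in 3 of the 4 day 1 libraries and in all 4 day 2 libraries. The ratio of Cd274 to Pdcd1lg2 in CPM per kb was 0.718, 0.778 and 0.753 in 3 of the day 1 libraries and 1.56 in the library labelled KO day 1 replicate 1, and it was 0.261 to 0.543 in the 4 day 2 libraries. Pdcd1lg2 was the most abundant of the 10 RNAs per length at KO day 2, at 183 ± 32.1 CPM per kb, and the next after Cd83 at WT day 2, at 207 ± 0.976 CPM per kb.

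Icosl, which encodes the ligand of ICOS on primed T cells, was the only one of the 10 called lower in culture. It stood at 52.2 and 38.2 CPM in WT monocytes, 65.3 and 57.5 CPM at day 1, then 23.7 and 18.3 CPM at day 2. In KO cells it stood at 59.8 and 68.2 CPM, then 60.3 and 48.3 CPM, then 25.2 and 19.6 CPM. The 4 day 2 libraries were below all 8 earlier ones. Icosl was 2.15-fold lower at day 2 than in monocytes in WT cells (log2 fold change -1.10 ± 0.28, edgeR adjusted p = 0.0183) and 2.86-fold lower in KO cells (-1.52 ± 0.29, adjusted p = 0.00496). The WT call was lost without either WT day 2 library (adjusted p = 0.0523 and 0.152) and in a fit on the compared groups only (0.117); the KO call was lost without KO day 2 replicate 2 (0.0612). Icosl lies at chr10:78069302-78083913.

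Among the TNF-family genes, Tnfsf4, which encodes OX40 ligand, appeared between day 1 and day 2. Monocytes held 0 reads of it in all 4 libraries, which allows up to 0.133 CPM over the WT pair and 0.107 CPM over the KO pair. Day 1 held 0 and 1 reads in WT and 7 and 0 reads in KO, with all 7 in the library labelled KO day 1 replicate 1. At day 2 it stood at 26.9 and 107 CPM in WT (234 and 850 reads) and at 0.834 and 2.13 CPM in KO (5 and 26 reads). The WT day 2 mean was at least 505-fold higher than in WT monocytes (edgeR adjusted p = 0.00193) and the KO day 2 mean at least 13.9-fold higher than in KO monocytes (adjusted p = 0.0433). The KO call was lost with DESeq2 (0.0687), with a replicate block by number (0.0604) and in 9 of the 12 fits that left out 1 library. Tnfsf4 lies at chr1:161395409-161418410.

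Tnfrsf9 encodes 4-1BB, best known as a costimulatory receptor of activated T cells and also made by dendritic cells. It held 1 and 0 reads in WT monocytes and 0 reads in both KO monocyte libraries. It stood at 1.24 and 4.73 CPM at WT day 1, 3.29 and 0.492 CPM at KO day 1, 174 and 409.7 CPM at WT day 2, and 74.0 and 248 CPM at KO day 2. Both day 2 libraries of each genotype were above every earlier library. Between day 1 and day 2 it rose 97.7-fold in WT (log2 fold change 6.60 ± 1.05, edgeR adjusted p = 0.00801) and 85.2-fold in KO (6.48 ± 1.06, adjusted p = 0.0180). The WT step was lost without either WT day 1 library. The KO step was lost without KO day 1 replicate 2 or KO day 2 replicate 2. It was also lost in an edgeR fit on the compared groups only (adjusted p = 0.129). Against monocytes the WT ratio was 6449 at day 2 (95% counting interval 1157 to 254765), and the KO day 2 mean was at least 1509-fold higher (edgeR adjusted p = 0.000854). At day 1 the WT ratio to monocytes was 67.5 (95% counting interval 11.7 to 2703, edgeR adjusted p = 0.0354). That call was lost in 8 of 22 alternatives, with a block by experiment among them (0.0660). The KO day 1 mean was at least 17.7-fold higher than in KO monocytes and was not called (edgeR adjusted p = 0.0511), though DESeq2 called it (0.00217).

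The promoter at the second of the 2 RefSeq starts of Tnfrsf9 is shown because it holds matches to 3 of the 6 motifs, more than any other member's window. Capitals again mark the matches, and the longest run of capitals is a pair of overlapping kappaB matches.
Tnfrsf9, chr4:150927749-150927998, plus strand: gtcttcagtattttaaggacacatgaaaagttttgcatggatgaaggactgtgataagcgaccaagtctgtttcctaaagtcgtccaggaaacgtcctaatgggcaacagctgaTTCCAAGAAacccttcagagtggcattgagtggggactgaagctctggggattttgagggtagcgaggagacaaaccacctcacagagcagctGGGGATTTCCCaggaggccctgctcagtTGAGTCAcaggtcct
In order from the left they are GAS at bases -136 to -128, kappaB at -43 to -34 and -42 to -33, and AP-1 at -15 to -9. In the same windows of all genes, 7.04% hold GAS and 6.73% AP-1. The window at the other start of Tnfrsf9 holds none of the 6 motifs. Of the 10 genes 5 have a window in the RefSeq table, and of these Cd80 holds AP-1 at -42 to -36 while Icosl holds no match. The NBRE, which 1.35% of windows hold, and the ISRE core, which 2.98% hold, were found in none of the 6 windows of these 5 genes; that concerns these letters in these bases, and says nothing of whether a factor binds.

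Tnfsf9, the gene for 4-1BB ligand, was called in no comparison of the fit over 12 libraries. It stood at 2.45 and 0.105 CPM in WT monocytes, 4.62 and 1.47 CPM at WT day 1 and 3.57 and 5.44 CPM at WT day 2, and at 3.71 and 3.69, 6.49 and 1.75, and 4.50 and 5.15 CPM at the same stages in KO. The log2 fold change of WT day 2 against monocytes was 1.77 ± 1.07 (edgeR adjusted p = 0.252), and it was called (0.0193) when WT monocytes replicate 1 was left out, which leaves the lone monocyte library with 1 read of the gene. Reads on the strand opposite to Tnfsf9 were 8.02% of the reads at the gene, against 0.508% to 1.29% for the other 9. The 4-1BB receptor RNA thus rose in cells whose 4-1BB ligand RNA did not pass the test.

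**Figure D2:**
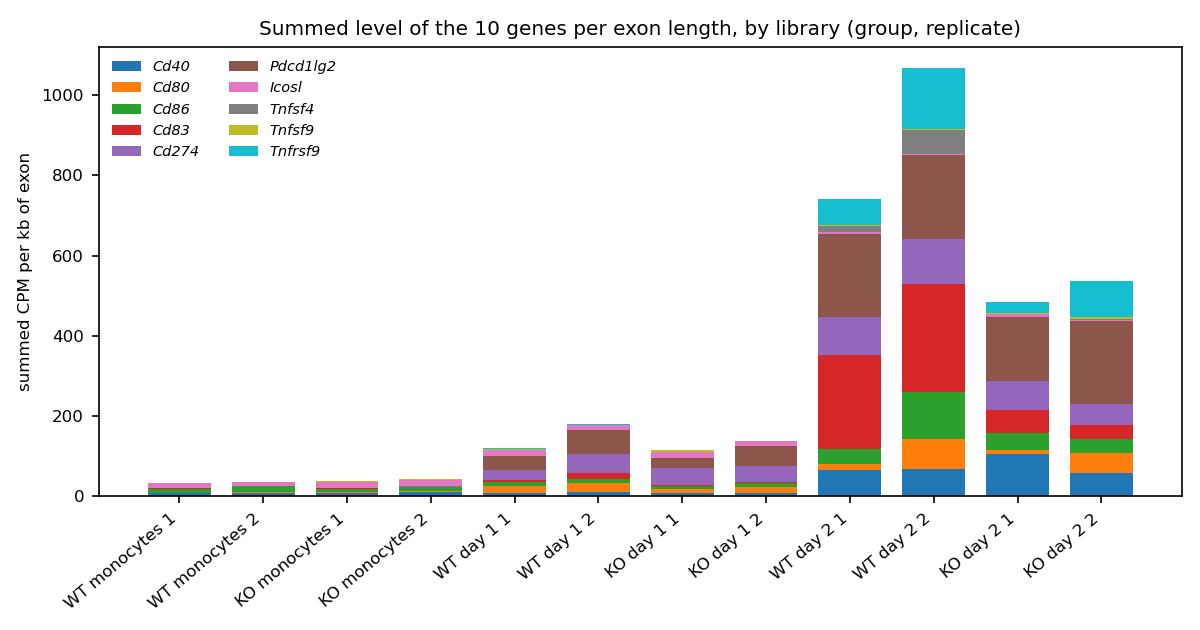
Summed level of the 10 genes in CPM per kb of exon in each library, stacked by gene, so that bar heights start at 0. Sums are 34.3 to 42.3 in monocytes, 116 to 180 at day 1, then 740.4 and 1067 for WT against 485 and 537 for KO at day 2; the Cd83 share is the part that differs most in height between WT and KO at day 2.

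Seen together per length, the make-up of the set changed with culture. In monocytes Cd86, Icosl and Cd40 together held 82.0% to 88.0% of the summed level, with means of 11.8 ± 2.55, 9.78 ± 2.14 and 7.92 ± 1.11 CPM per kb in WT, and neighbours in that order overlapped. At day 1 Pdcd1lg2 and Cd274 led, at 47.5 ± 17.6 and 35.9 ± 15.2 CPM per kb in WT and 39.2 ± 17.0 and 40.5 ± 2.64 CPM per kb in KO, with overlapping ranges. At WT day 2 Cd83 and Pdcd1lg2 were followed by Tnfrsf9 (107 ± 61.3 CPM per kb), Cd274 (104 ± 12.9) and Cd86 (78.2 ± 55.9), whose ranges overlapped. At KO day 2 Cd40 (81.3 ± 32.7 CPM per kb), Cd274 (62.9 ± 13.1) and Tnfrsf9 (59.2 ± 45.2) came after Pdcd1lg2, ahead of Cd83 (47.2 ± 16.0), with overlapping ranges. Icosl went from 23.8% to 34.9% of the sum in monocytes to 0.372% to 1.12% of it at day 2.

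In KO cells, 3 of the 10 genes were called higher at day 1 than in monocytes and 0 lower, where 7.7% and 6.14% of all genes were. At day 2, 8 were called higher and 1 lower than in monocytes (9.95% and 7.57% of all genes), and these were the same 9 genes, in the same directions, as in WT. Between the days 5 were called higher and 1 lower in KO, against 1.5% and 0.542% of all genes. The median log2 fold change over the 10 genes at KO day 2 was 4.68, or 3.98 with the genes at 0 reads in monocytes set to their bounds, beside 0.08 over all genes tested.

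The KO libraries were compared with WT at each stage, which is the comparison the series title points to. At day 2, Tnfsf4 and Cd83 were the members furthest apart, lower in both KO libraries than in both WT libraries: Cd83 by 5.34-fold in the means and Tnfsf4 by 45.4-fold. The fit over all 12 libraries called 0 of the 10 at day 2 (log2 fold change -2.42 ± 0.63 and edgeR adjusted p = 0.451 for Cd83, -5.42 ± 1.10 and 0.298 for Tnfsf4), where 0.0998% of all genes were called, and 3 had an unadjusted p under 0.05 (Tnfsf4, Cd83 and Cd86). DESeq2 called 1, Cd83 (adjusted p = 0.0178), and edgeR with a block by experiment called 1, Tnfsf4 (-5.41, adjusted p = 0.0330). For these fits and for the unadjusted p the share of all genes was not counted, so those counts cannot be set against it. A fit of the 4 day 2 libraries alone, paired by experiment, called 4 members lower and 0 higher, where 5.48% of genes were lower and 5.09% higher. These were Tnfsf4 (-5.54 ± 0.21, adjusted p = 1.75e-05), Tnfrsf9 (-0.97 ± 0.13, 0.00459), Cd83 (-2.46 ± 0.26, 0.0106) and Cd80 (-0.50 ± 0.12, 0.0333). The paired fit keeps 1 residual degree of freedom. Each SE from it therefore leans on the spread of other genes and is a weak measure of that gene's own. Tnfsf4 rests on 5 and 26 reads in the KO day 2 libraries. In the same paired fit 5 of 8 classical monocyte markers were called higher in KO and 0 lower (median log2 fold change 0.93), and 6 of 10 markers of cultured dendritic cells were called higher and 1 lower. The monocyte markers summed to 5388 and 1154 CPM in the WT day 2 libraries and to 7007 and 2372 CPM in the KO day 2 libraries, and their part in these results was not tested.

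**Figure D3:**
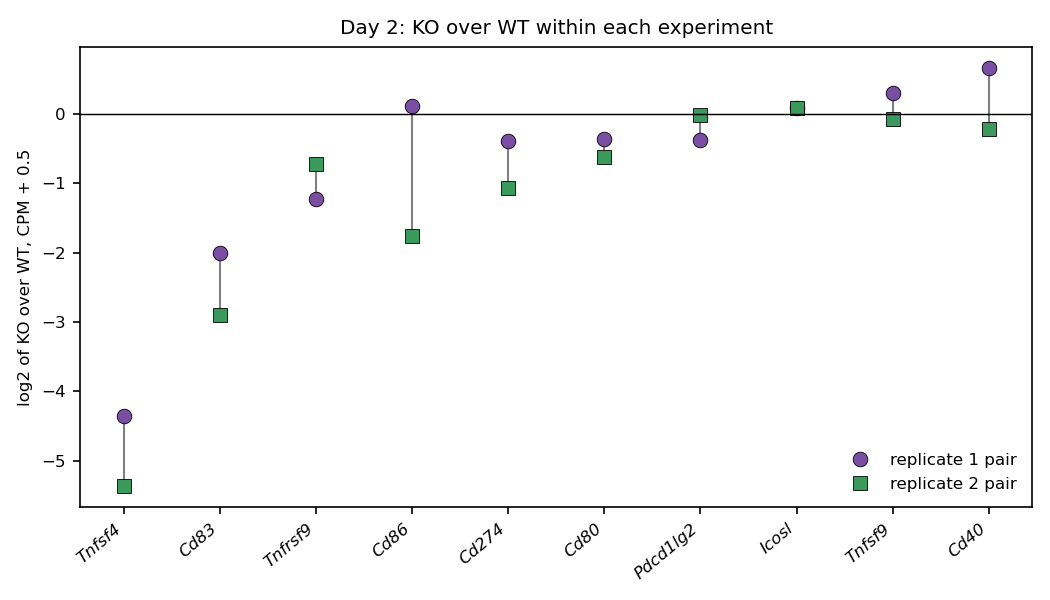
Log2 ratio of KO to WT at day 2 within each experiment, from CPM + 0.5, for the 10 genes (circles are replicate 1, squares replicate 2, the line at 0 is no difference). Tnfsf4, Cd83, Tnfrsf9, Cd274 and Cd80 lie below 0 in both pairs, Pdcd1lg2 is close to 0 in one of them, and Cd86, Tnfsf9 and Cd40 lie on opposite sides of 0.

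Within the 2 day 2 experiments the sizes differed by gene. Cd83 was 4.01-fold lower in KO than in WT in replicate 1 and 7.52-fold lower in replicate 2, and Tnfsf4 was 32.3-fold and 50.5-fold lower. Tnfrsf9 was 2.35-fold and 1.65-fold lower, although its KO and WT ranges overlapped, and replicate 2 stood above replicate 1 by 2.36-fold in WT and 3.35-fold in KO. Cd80 was likewise 5.18-fold higher in replicate 2 than in replicate 1 of WT and 4.33-fold higher in KO, and lower in KO by 1.28-fold and 1.53-fold within the pairs. Cd86 was 3.38-fold lower in KO in replicate 2 and 1.08-fold higher in replicate 1, so the pairs differed in direction. Cd274 was 1.31-fold and 2.11-fold lower in KO (-0.72 ± 0.39, edgeR adjusted p = 1; paired fit 0.0596).

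For the others at day 2 the differences between KO and WT were small beside their errors. The log2 fold changes were 0.29 ± 0.33 for Cd40, -0.18 ± 0.38 for Pdcd1lg2, 0.09 ± 0.28 for Icosl and 0.10 ± 1.02 for Tnfsf9, each with an edgeR adjusted p of 1. Such values do not show that KO and WT act alike, least of all for Tnfsf9, whose error is the widest.

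Before day 2, edgeR called 0 of the 10 between genotypes. In monocytes 0% of all genes were called, and 0 members had an unadjusted p under 0.05. At day 1 again 0% of all genes were called, and 1 member had an unadjusted p under 0.05, Cd83, which was 3.23-fold lower in KO (14.5 and 36.9 CPM in WT, 6.67 and 9.25 CPM in KO, with no overlap; log2 fold change -1.69 ± 0.63, edgeR adjusted p = 1). DESeq2 also called 0 at both stages. Tests of whether the change with culture differed between genotypes called 0 of 10 for day 1 against monocytes, day 2 against monocytes and day 2 against day 1, where 0%, 0.0285% and 0% of all genes were called. For Cd83 that difference at day 2 against monocytes was -2.63 on the log2 scale (unadjusted p = 0.0188, edgeR adjusted p = 1.00), and for Cd274 it was -1.63 (0.0167, 1.00). For Tnfsf4 the difference at day 2 against day 1 was -7.80 (0.00647, 1.00), and it rests on 8 reads at day 1.

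Genes of the signalling route below CD40, 4-1BB and the other TNF receptors were called higher mostly at day 2. Of 21 genes for TRAF adaptors, kinases and NF-kappaB subunits, 4 were called higher and 1 lower at WT day 1, 15 and 0 at WT day 2, and 7 and 0 at KO day 2, each against monocytes. Over all genes tested, 11.4% were called higher and 10.1% lower at WT day 1. The shares were 12.7% and 9.89% at WT day 2, and 9.95% and 7.57% at KO day 2. The medians of the 21 log2 fold changes were 0.37, 1.48 and 0.87. Traf1, an adaptor of the 4-1BB complex, stood at 0.230 and 0.211 CPM in WT monocytes and 362 and 425 CPM at WT day 2 (log2 fold change 10.73 ± 0.41, edgeR adjusted p = 6.43e-07). Rel and Relb, which encode NF-kappaB subunits, rose too (2.92 ± 0.32, adjusted p = 0.000219, and 3.56 ± 0.42, 0.000328). Ikbkb, a kinase of the same pathway, and Tab2 did not pass (-0.81 ± 0.32, 0.0960, and -0.60 ± 0.29, 0.152).

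Map3k14 was the 1 gene of the 21 called between KO and WT at day 2. It encodes NIK, the kinase that starts the alternative NF-kappaB pathway below CD40 and related receptors. Map3k14 stood at 389 and 342 CPM in WT day 2 and at 55.0 and 33.4 CPM in KO day 2, where monocytes of either genotype had 37.9 to 55.2 CPM. The KO day 2 values lay among or just under those of monocytes, and the WT values far above them. The log2 fold change of KO against WT was -3.05 ± 0.38 (edgeR adjusted p = 0.0249; paired fit -3.09 ± 0.16, 0.000110). The call over 12 libraries was lost without any 1 of the day 2 libraries (0.0858 to 0.312) or either KO monocyte library (0.0668 and 0.0767), and in a fit on the compared groups only (0.200), and DESeq2 kept it (5.14e-12). In the paired fit of the day 2 libraries 9 of the 21 were lower in KO and 0 higher, where 5.48% of all genes were lower and 5.09% higher, Relb (-1.06 ± 0.15, adjusted p = 0.00538), Nfkb2 (-0.95 ± 0.14, 0.00645) and Rel (-0.86 ± 0.10, 0.00245) among them; these 3 were named after their values were seen.

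**Figure D4:**
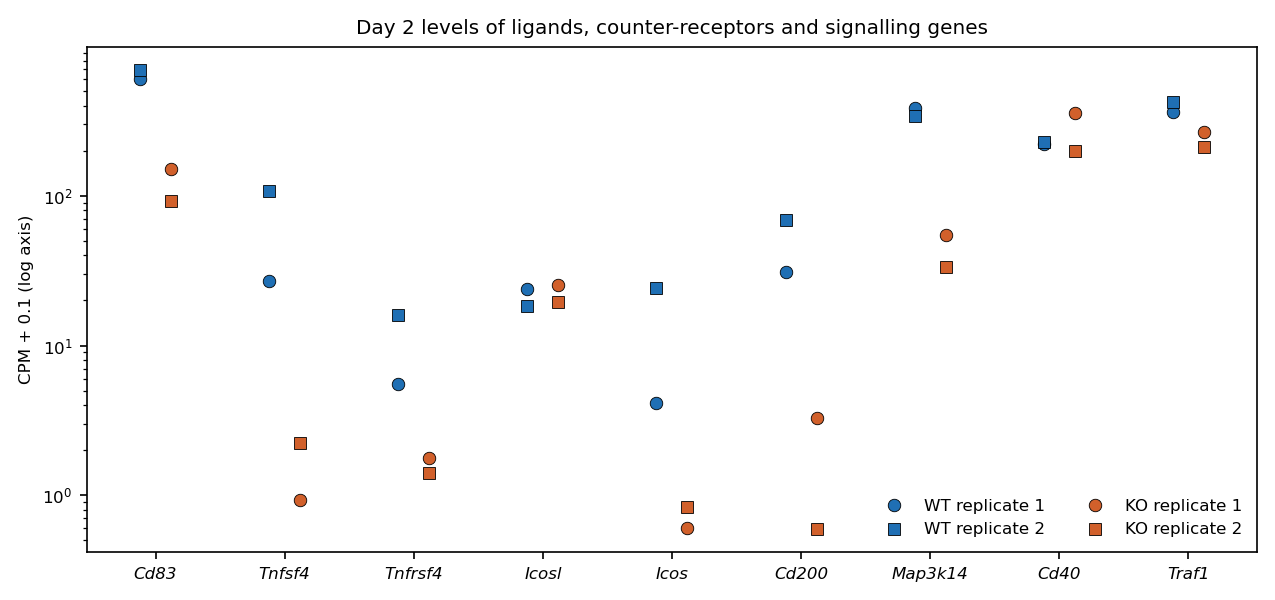
Day 2 levels (CPM + 0.1, log axis) of 9 genes in the 4 libraries, blue for WT and orange for Nr4a3 KO. Cd83, Tnfsf4, Tnfrsf4, Icos, Cd200, Map3k14 and Traf1 lie lower in both KO libraries than in both WT libraries, and Icosl and Cd40 overlap. The 9 genes were picked for display with results known, so they give no share of genes lower in KO. Lag3 and March1, which stood higher in both KO libraries, are not shown.

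A list of receptors that T cells use to read these and other ligands was mostly near the limit of detection, with 8 of 12 tested. At WT day 2, 3 were called higher and 1 lower than in monocytes, and at KO day 2, 0 higher and 1 lower. Over all genes tested, 12.7% were called higher and 9.89% lower at WT day 2, and 9.95% and 7.57% at KO day 2. Icos, the receptor of ICOS ligand, was called higher at WT day 2, at 4.03 and 24.2 CPM against 0.230 and 0 CPM in WT monocytes (log2 fold change 6.69 ± 1.498, edgeR adjusted p = 0.0173). It stood at 0.500 and 0.736 CPM in KO day 2, and the paired fit called it lower in KO (-4.63 ± 0.41, adjusted p = 0.000809). The level in KO day 2 replicate 1 is that of 3 reads, and the paired fit keeps 1 residual degree of freedom. Tnfrsf4, the OX40 receptor, stood at 5.41 and 15.8 CPM in WT day 2 and 1.67 and 1.31 CPM in KO day 2 (paired fit -2.93 ± 0.44, adjusted p = 0.00868); Tnfrsf4 was named after its values were seen. Over the 12 libraries 0 of the 8 receptors were called between KO and WT at day 2 (2 at an unadjusted p under 0.05). The paired fit called 2 lower and 1 higher in KO, beside 5.48% and 5.09% of all genes. The 1 called higher was Lag3, a receptor of MHC class II, at 2.42 and 1.52 CPM in WT day 2 and 5.67 and 5.64 CPM in KO (1.54 ± 0.33, edgeR adjusted p = 0.0254), and it too was named after its values were seen. Summed over 10 T-cell markers, the WT libraries of day 2 stood at 5.41 and 8.22 CPM, and their KO partners at 9.004 and 9.49 CPM. The same sums ranged from 0.165 to 3.34 CPM at day 1 and from 2.43 to 7.91 CPM in monocytes. Of 3 such markers tested, 1 was called higher and 0 lower at day 2 than in monocytes, in each genotype. Cd3e held 0 or 1 reads in each day 2 library. Whether T cells add to the receptor levels was not tested. Btla, an inhibitory receptor that binds HVEM, fell from 63.4 and 105 CPM in WT monocytes to 1.495 and 1.77 CPM at WT day 2 (-5.68 ± 0.87, edgeR adjusted p = 0.00132).

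A list of genes that act on such ligands at the cell surface gave few calls. Of 7 tested, 1 rose and 1 fell at WT day 2, where 12.7% of all genes were called higher and 9.89% lower, and 1 rose and 0 fell at KO day 2; these shares are near those of all genes. The 1 that fell in WT was March1, the ubiquitin ligase that removes CD86 from the surface of dendritic cells, at 126 and 178 CPM in WT monocytes and 47.2 and 29.97 CPM at WT day 2 (log2 fold change -1.98 ± 0.37, edgeR adjusted p = 0.00369). In KO day 2 it stood at 80.9 and 74.4 CPM, above both WT libraries. That difference was not called over the 12 libraries (1.01 ± 0.36, edgeR adjusted p = 0.981) and was in the paired fit (1.04 ± 0.14, adjusted p = 0.00430). March8, a related ligase, rose in both genotypes by day 2 (2.65 ± 0.34, adjusted p = 0.000481, in WT and 2.13 ± 0.33, 0.00177, in KO). Cmtm6, which stabilises PD-L1 in human cells, did not pass at WT day 2 (0.53 ± 0.49, adjusted p = 0.463).

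Other ligands for T-cell receptors were mixed. A mixed list of B7 relatives, butyrophilins, nectins, galectins, Ceacam1 and Cd200 had 8 genes tested. Of these 3 were called higher and 2 lower at day 2 than in monocytes in WT, and 3 and 2 in KO, beside 12.7% of all genes called higher and 9.89% lower in WT, and 9.95% and 7.57% in KO. Vsir, which encodes the checkpoint protein VISTA, fell from 1009 and 845 CPM in WT monocytes to 65.3 and 23.4 CPM at WT day 2 (log2 fold change -4.38 ± 0.68, edgeR adjusted p = 0.00148). Nectin2, a ligand of CD226 and TIGIT, went the other way, from 0.766 and 2.11 CPM to 132 and 177 CPM (6.78 ± 0.59, adjusted p = 5.22e-05). Cd200, whose product restrains myeloid cells, held 0 reads in both WT monocyte libraries and stood at 30.9 and 68.4 CPM in WT day 2 against 3.17 and 0.491 CPM in KO day 2; the difference between genotypes was not called over the 12 libraries or in the paired fit (-5.12 ± 0.98, adjusted p = 0.120).

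Of 12 further TNF-family ligands and HVEM, 3 were called higher and 3 lower at WT day 2, and 4 and 2 at KO day 2. Over all genes tested, 12.7% were called higher and 9.89% lower than in monocytes at WT day 2, and 9.95% and 7.57% at KO day 2. Tnfsf15, a ligand that costimulates through DR3, had 0 reads in WT monocytes and stood at 9.43 and 38.3 CPM at WT day 2 (edgeR adjusted p = 0.00136). Tnfsf14, the HVEM ligand LIGHT, fell from 20.3 and 9.07 CPM to 1.61 and 1.26 CPM (log2 fold change -3.34 ± 0.60, edgeR adjusted p = 0.00305). Of 10 adhesion genes that work beside costimulation, 3 rose and 1 fell in WT and 5 and 1 in KO; Icam1, the LFA-1 ligand, stood at 56.1 and 32.1 CPM in WT monocytes and 279.8 and 346 CPM at WT day 2 (2.83 ± 0.34, adjusted p = 0.000351).

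Genes of the cytokine routes that the culture uses were called in both directions. The list of 21 genes held JAKs, STATs, IRFs, the receptors of GM-CSF, IL-4 and interferon-gamma, and feedback genes such as Cish and Socs1. Of the 21, 6 were called higher and 4 lower at WT day 1, 7 and 1 at WT day 2 and 7 and 2 at KO day 2. Over all genes tested, 11.4% were called higher and 10.1% lower than in monocytes at WT day 1. The shares were 12.7% and 9.89% at WT day 2, and 9.95% and 7.57% at KO day 2. The median log2 fold change of the 21 at WT day 1 was -0.06, beside 0.06 over all genes tested. Cish, a feedback inhibitor induced through STAT5, went from 1.07 and 0.211 CPM in WT monocytes to 579 and 568 CPM at day 1 (log2 fold change 9.69 ± 0.63, edgeR adjusted p = 2.77e-05). Jak2, the kinase of the GM-CSF receptor, rose by 3.08 ± 0.39 at day 1 (adjusted p = 0.000699). Csf2ra, which encodes the GM-CSF receptor alpha chain, and Stat6, which encodes the main STAT below the IL-4 receptor, did not pass at WT day 1 (0.35 ± 0.52, adjusted p = 0.680, and -0.64 ± 0.26, 0.1). Between KO and WT at day 2, 0 of the 21 were called over the 12 libraries (1 at an unadjusted p under 0.05), and the paired fit called 4 lower and 0 higher in KO, beside 5.48% and 5.09% of all genes. Of 11 cytokines and cytokine receptor chains that set the type of T-cell response, 3 were called higher and 0 lower at WT day 2 and 2 and 1 at KO day 2. Il12b, the shared chain of IL-12 and IL-23, had 0 reads in monocytes and stood at 6.67 and 6.32 CPM at WT day 2 (edgeR adjusted p = 0.0194), against 0.667 and 1.39 CPM at KO day 2.

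Genes whose profiles over the 12 libraries lay closest to each member were found among 10022 with a mean of at least 5 CPM, by the root mean square difference of centred log2 CPM, a description that shared groups and depth also enter. Stat5a was among the 3 closest to both Cd40 (0.434) and Cd86 (0.476), and Cd40 and Cd86 were the closest pair of members (0.616). Rel was also among the 3 closest to Cd86 (0.479). The closest to Pdcd1lg2 was Socs2 (0.479), a cytokine feedback gene, and Bhlhe40 was among those closest to Cd274 (0.507). Cd83 had Scin (0.846) and Mir155hg (0.861), the host gene of miR-155, as its closest. The nearest to Tnfsf4 was Gm13546 at 0.862, with group means of 75.4 CPM in WT day 2 and 1.49 CPM in KO day 2. Icosl had the nearest partner of all 10, Tcof1 at 0.213, a ribosome biogenesis gene that stood at 137 CPM in WT monocytes and 63.5 CPM in WT day 2.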

How the data were processed

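The authors deposited raw, unnormalized read counts per gene for each library. The submitters' processing notes name Trimmomatic 0.35, STAR 2.5.1b and GRCm38, and no annotation release. Column 4, for a reverse-stranded kit, was used, and 47224 of 47643 gene IDs matched a GENCODE M21 symbol, which also gave positions and exon lengths. The 4 lines that name no gene were left out (2.65% to 7.91% of reads unmapped, 5.29% to 8.94% multimapping).

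Tests used edgeR 4.0.16 under R 4.3.3 (TMM, filterByExpr, robust quasi-likelihood, 1 mean per group over 12 libraries, 6 residual degrees of freedom, two-sided, Benjamini-Hochberg over 14034 genes) and the steps were tested on simulated data. Alternatives were DESeq2 1.42.0, RLE and upper-quartile scaling, no low-count filter, a replicate block, fits on the compared groups only, and leaving out libraries. The paired fit of the day 2 libraries left 1 residual degree of freedom. Same-numbered libraries of a stage share an experiment, by dates in the deposited files' names, and their deviations from group means correlated at 0.236, 0.194 and 0.657 in monocytes, day 1 and day 2. For day 1 replicate 2 the file names read 16 hours, against the 1 day of the labels.

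The members and 17 further gene lists were chosen with earlier results of these data known. All members are named; from a list, up to 3 called genes with the smallest adjusted p and up to 2 uncalled ones with the highest mean CPM could be, and exceptions are stated. A group at 0 reads was set to 3 counts over the group, and intervals are at 95%. Promoters are from RefSeq.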

Additional observations from a re-analysis of the deposited data

How the results depend on the processing

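Of 2598 values of the 10 genes under the alternatives, 2381 kept their direction and their side of the threshold, 101 were no longer called and 26 were newly called; 90 changed sign while called in neither fit. Without the low-count filter, 1 member was called for KO against WT at day 1, 2 at day 2, 6 for KO day 1 against monocytes, and 1 in each test of a genotype difference that involves day 2. In that fit the edgeR adjusted p of Tnfsf4 for KO against WT at day 2 went from 0.298 to 1.89e-15. Apart from the paired day 2 fit above, shares of all genes called were not counted under the alternatives. Counts of members called there cannot be set against such a share. DESeq2 called 5 for KO day 1 against monocytes and 1 for KO against WT at day 2. The paired fits also gave other counts for KO against WT at day 2: a replicate block by experiment called 1 member and the compared groups alone with a replicate block called 4. Against monocytes, a block ended the calls of Tnfrsf9 at WT day 1 and of Tnfsf4 at KO day 2 given above, it added Cd80 for KO day 2 against KO day 1 (adjusted p = 0.0472), and it changed no other call of a member. The compared groups alone called 1 member for KO day 2 against KO day 1, and the fit without the pair of libraries that stood apart gave 3 for WT day 1 against monocytes. Leaving out 1 library gave 3 to 5 members for WT day 1 against monocytes, 1 to 8 for WT day 2 against WT day 1 (1 without WT day 1 replicate 1), and 2 to 6 for KO day 2 against KO day 1 (2 without any 1 of its 4 libraries). The cause was not tested; fewer libraries and genes are part of how these fits are built. A paired fit on the compared groups could not be made for day 2 against earlier stages, which come from other experiments. Depth limits Tnfsf4, Pdcd1lg2 and Tnfrsf9 in monocytes, where 0 to 2 reads were seen per library.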
